A study of Mus musculus with 8 samples.

Results

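The Slc35f subfamily comprises 6 mouse genes, *Slc35f1* to *Slc35f6*, and all 6 were found by symbol among the 27179 genes listed for these livers. *Slc35f2* was chosen by its place in the authors' own comparison of the genotypes, whose values are not used here. Its 5 relatives were taken because they belong to the same subfamily. Liver RNA was sequenced from 4 wild-type and 4 V227A male C57BL/6NHsd mice, all adults of 12 to 14 weeks that had been fasted for 6 h. The V227A mice are homozygous for a germline base edit of *Ppara*, the nuclear receptor that drives the hepatic fasting response, in which alanine replaces valine in every tissue. The colony descends from 1 heterozygous founder that was backcrossed to C57BL/6NHsd and bred through heterozygotes. The diet of the sequenced mice is not given beside the RNA sequencing.

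The values available for each gene are 1 average log2 CPM (read counts scaled to the size of the library, on the log2 scale) over all 8 libraries, in which both genotypes are mixed. A level below is therefore neither a wild-type nor a V227A level, and the spread between mice is unknown. Whether any of the 6 genes differed between V227A and wild-type was not tested here, because the values used are averages over all 8 libraries. The data answer the other question about the subfamily, which of its members are expressed in liver at all and how strongly.

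SLC35 proteins are membrane transporters with many predicted transmembrane helices, and the well characterized ones carry nucleotide sugars from the cytosol into the Golgi apparatus and endoplasmic reticulum for glycosylation. The F subfamily is the least understood branch. SLC35F2 has been studied as the carrier through which the cytotoxic compound YM155 enters tumor cells, SLC35F1 mainly as a gene of the brain, SLC35F3 as a candidate thiamine transporter, and SLC35F6 as a lysosomal and mitochondrial membrane protein. Little is established about the substrate of SLC35F5. Hepatocytes, which secrete large amounts of glycosylated plasma protein, depend on several members of the wider family.

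*Slc35f2* had a low level in these livers. Its average log2 CPM was 0.61, which corresponds to an estimated 320.1 reads over the 8 libraries, or 40.0 reads per library (95% exact Poisson interval 35.7 to 44.6). Such intervals cover counting error only, not differences between mice. Per kilobase of its longest annotated transcript, which has 2558 bases, this was 15.6 reads (13.97 to 17.4). By coding length, 1125 bases, it was 35.6 reads per kilobase. By reads per kilobase of transcript, 40.3% of the genes with reads lay below it. The share was 9.16% of those with an average log2 CPM of at least 0, and 57.7% of all genes listed. The median gene with reads had 38.4 reads per kilobase and library, so *Slc35f2* sat in the lower part of the transcripts detected in liver.

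*Slc35f5* and *Slc35f6* were the abundant members. *Slc35f5* had an average log2 CPM of 4.79, or an estimated 756 reads per library (737 to 775), and *Slc35f6* had 4.47, or 606 reads per library (589 to 624). Per kilobase these were 277 reads (269.6 to 284) for *Slc35f5* and 113.7 reads (110.5 to 117.0) for *Slc35f6*. Against *Slc35f2*, the level per kilobase was 17.7-fold higher for *Slc35f5* (counting interval 15.8 to 19.9) and 7.27-fold higher for *Slc35f6* (6.49 to 8.17). The ratio of *Slc35f5* to *Slc35f2* was 13.5 with coding length and 17.4 with the union of exons. That of *Slc35f6* to *Slc35f2* rested more on the length chosen. It was 12.6 with the longest protein-coding transcripts, 15.3 with coding length and 4.85 with the union of exons. By the longest annotated transcript, *Slc35f5* and *Slc35f6* both stood above the median gene with reads, with 79.9% of genes below *Slc35f5* and 65.8% below *Slc35f6*.

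The order of this pair depends on the length used. The longest transcript of *Slc35f6*, with 5332 bases, retains an intron. Divided instead by its longest protein-coding transcript of 3088 bases, its level was 196 reads per kilobase, still below *Slc35f5*. With coding length, 1116 bases for *Slc35f6* and 1572 bases for *Slc35f5*, the order turned, at 543 reads per kilobase for *Slc35f6* and 481 for *Slc35f5*.

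*Slc35f1*, the relative grouped most closely with *Slc35f2* in the family, was close to the limit of detection. Its average log2 CPM of -2.53 corresponds to an estimated 22.1 reads over all libraries together, or 2.77 reads per library (1.72 to 4.16). Per kilobase this was 0.560 reads (0.349 to 0.843), and the level of *Slc35f2* was 27.9-fold higher (18.2 to 45.5), or 15.7-fold with coding length.

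*Slc35f3* and *Slc35f4* gave essentially no signal. *Slc35f3* had an average log2 CPM of -3.69, which is 1 read in total among the 8 libraries (0.0253 to 5.57). *Slc35f4* sat at the lowest average log2 CPM of the table, -3.78, and so had no reads. A count of 0 was taken to allow up to 3 reads in total, or 0.136 reads per kilobase and library for *Slc35f4*; the 2-sided exact interval used for the other genes would reach 3.69 reads, or 0.168 per kilobase. *Slc35f3* and *Slc35f4* could not be placed in order, since 1 read and 0 reads are not distinguishable at this depth.

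**Figure D1:**
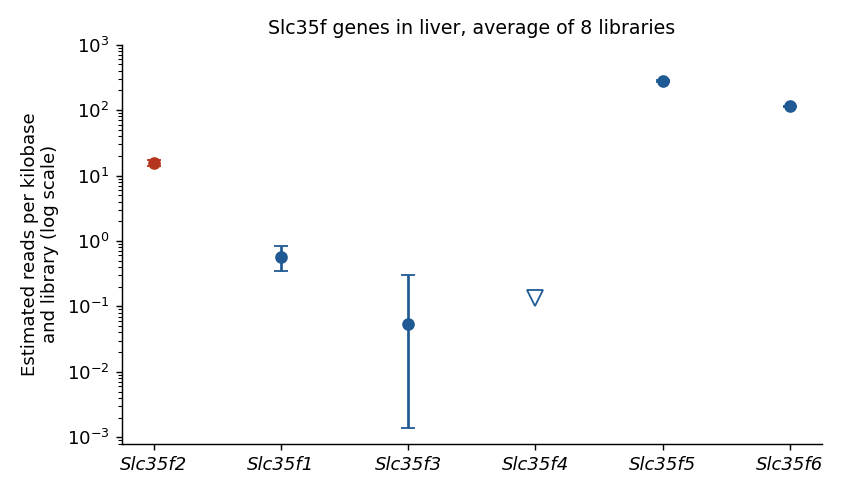
Estimated reads per kilobase and library (log scale) of the 6 Slc35f genes, as averages of 8 libraries of both genotypes. Bars are 95% exact Poisson intervals for counting error, and the open triangle is the upper limit of 0.136 that a count of 0 allows for *Slc35f4*. *Slc35f5* at 277 and *Slc35f6* at 113.7 lie above *Slc35f2* at 15.6, and *Slc35f1* and *Slc35f3* lie below it.

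Thus 4 of the 6 members had at least 1 estimated read per library, and 3 of 6, *Slc35f2*, *Slc35f5* and *Slc35f6*, had at least 10. Among all genes with a symbol, 60.7% had at least 1 estimated read per library. The shares at this limit of 10 were 3 of 6 members and 49.7% of all genes with a symbol. The members ran from no reads to a level above 79.9% of the genes with reads. *Slc35f2* lay below *Slc35f5* and *Slc35f6* and above *Slc35f1*, *Slc35f3* and *Slc35f4*, with a counting interval that overlapped none of theirs.

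**Figure D2:**
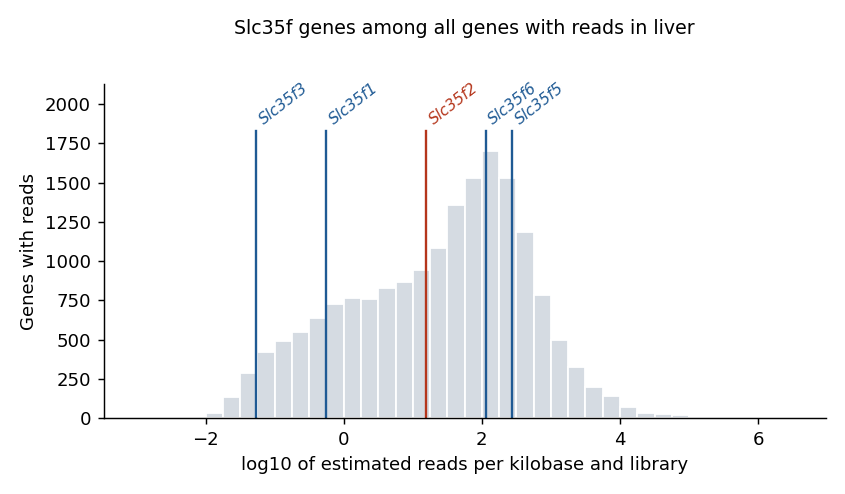
Distribution of the log10 of estimated reads per kilobase and library over the 17958 genes with reads and a known length (bars), with a line for each Slc35f gene that had reads. *Slc35f6* lies at the peak of the distribution and *Slc35f5* just to the right of it. Levels are per kilobase of the longest annotated transcript, which for *Slc35f6* retains an intron, and its position depends on the length used. *Slc35f2* lies to the left of the peak, and *Slc35f1* and *Slc35f3* farther to the left. *Slc35f4*, without reads, is not drawn.

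The 21 other Slc35 genes had the higher median level. Of them, 19 had at least 1 estimated read per library and 18 at least 10. Their median was 143.4 reads per kilobase and library, against 8.10 for the Slc35f genes and 4.47 for all genes with a symbol. All members of the a, b and c subfamilies had reads, from 65.7 reads per kilobase for *Slc35a5* to 656 for *Slc35b1*. These hold the transporters of CMP-sialic acid (*Slc35a1*), UDP-galactose (*Slc35a2*), the sulfate donor PAPS (*Slc35b2* and *Slc35b3*) and GDP-fucose (*Slc35c1*).

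The highest of the 21 were *Slc35b1*, which exchanges ATP into the endoplasmic reticulum, *Slc35b2* with 443.5 reads per kilobase and *Slc35c2* with 339.0. *Slc35f5* ranked 5 of all 27 Slc35 genes, between *Slc35d2* with 314.7 reads per kilobase and *Slc35e1* with 242.6. *Slc35f6* ranked 14 and *Slc35f2* ranked 20. These ranks use the longest annotated transcript, which for *Slc35f6* retains an intron, and family ranks by other lengths were not computed. The lowest of the 21 were *Slc35g3* with no reads, *Slc35d3* with 0.0472 reads per kilobase and *Slc35g2* with 1.18. The level of *Slc35f2* fell in the gap between *Slc35a5* and *Slc35e4*, which had 3.56 reads per kilobase.

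**Figure D3:**
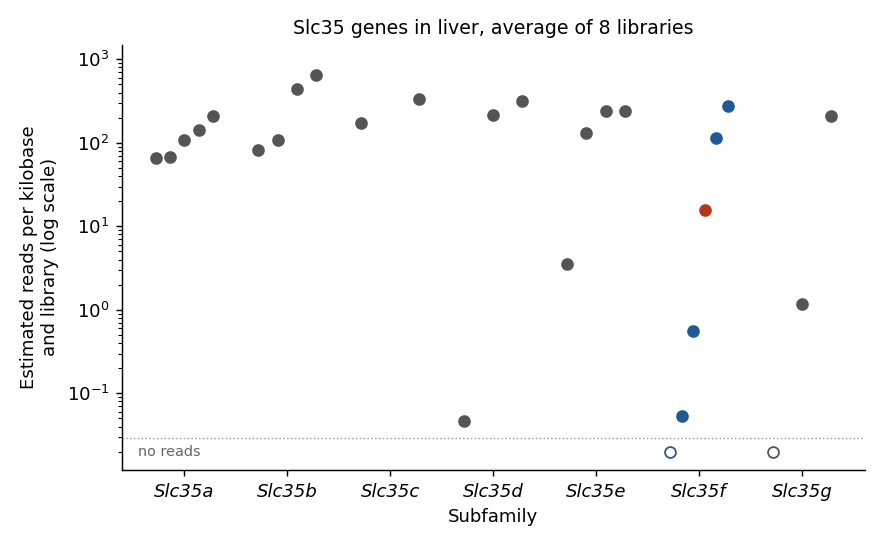
Estimated reads per kilobase and library (log scale) of 27 Slc35 genes by subfamily, each point a gene averaged over 8 libraries, with *Slc35f2* in red and the other Slc35f genes in blue. Open points below the dotted line are genes without reads. Genes of the a, b and c subfamilies start at 65.7, while the Slc35f genes run from no reads to 277.

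The libraries carried the markers of liver. All 7 hepatocyte markers were abundant, from 9133 reads per kilobase and library for *Cps1* to 939825 for *Alb*, and *Ppara* had 2670. *Slc35f2* lay far below every one of them. Markers of the other cells of a liver were present too, and many exceeded *Slc35f2*. All 5 endothelial markers (*Kdr* 53.1 to *Clec4g* 721), all 5 of Kupffer cells and macrophages (*Adgre1* 39.9 to *Clec4f* 911), all 5 of stellate cells (*Lrat* 39.6 to *Dcn* 583) and 4 of 5 of cholangiocytes (*Krt7* 8.33 to *Spp1* 436) were above its 15.6 reads per kilobase.

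Among the other lists, 1 of 5 T and NK cell markers (*Cd3g* 4.49 to *Trbc2* 17.4) and 1 of 5 B cell markers (*Ebf1* 0.630 to *Cd79b* 20.0) were above it. The red blood cell marker *Hbb-bs* had 3411 reads per kilobase and library. Of the neuronal markers, *Syt1* had 62.6 and *Snap25* had no reads. Skeletal muscle markers ran from 1.33 for *Myh4* to 37.3 for *Mylpf*. Among the pancreatic markers *Prss2*, *Pnlip* and *Cpa1* had no reads and *Cela1* had 740.5. In whole liver, few cells with much of a transcript and many cells with little cannot be told apart, and which cells gave the reads of *Slc35f2*, *Slc35f5* and *Slc35f6* was not tested.

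The 6 genes are scattered over the genome. On GRCm38, *Slc35f2* (ENSMUSG00000042195) lies on chromosome 9 from 53771538 to 53818154 on the plus strand, with 8 exons in its coding transcript. *Slc35f1* lies on chromosome 10 (52690533 to 53111622), *Slc35f3* on chromosome 8 (126298558 to 126395482), *Slc35f4* on chromosome 14 (49298519 to 49526046), *Slc35f5* on chromosome 1 (125560595 to 125595820) and *Slc35f6* on chromosome 5 (30647933 to 30659729). None shares chromosome 15 with the edited *Ppara* gene. The 2 members with the highest levels are also those with the shortest genes, 11797 bases for *Slc35f6* and 35226 for *Slc35f5*, followed by 46617 for *Slc35f2*. The 3 with few or no reads span 96925 to 421090 bases in the GENCODE annotation. Whether gene length and level go together over all genes was not tested.

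The longest coding transcript of each member was searched for exact stretches of 50 bases found in other annotated transcripts. Near-identical stretches, introns and the remaining exons were not searched, and miscounting of reads was not tested. For *Slc35f6* the transcript searched has 3088 bases, while the one used for its level has 5332. No stretch of 50 bases in the longest coding transcript of any member recurred in a transcript of another member. For *Slc35f2*, *Slc35f3*, *Slc35f4* and *Slc35f5* none recurred in any other annotated gene. In *Slc35f1* 0.899% of such stretches recurred elsewhere, in 191 other genes, and in *Slc35f6* 1.02% did, all in the microRNA gene *Mir5625* that lies within its exons. An antisense gene, *Gm48940*, overlaps 288 exonic bases of *Slc35f4*, which had no reads. No annotated gene overlaps *Slc35f2*.

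Of the 2 nearest protein-coding genes on either side of *Slc35f2*, those on the left had reads and those on the right had none. The nearest protein-coding genes on its left, *Rab39* at 65305 bases and *Cul5* at 101523 bases, had 1.82 and 78.0 reads per kilobase and library. On its right lie *Sln* at 32009 bases and *Elmod1* at 93302 bases. The nearly silent *Slc35f3* lies 27032 bases from *Coa6*, a cytochrome c oxidase assembly gene with 944 reads per kilobase.

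The promoters of the members differed in their CpG content, the density of C followed by G that marks the start sites of many broadly expressed genes. RefSeq gives 8 promoters for the 6 members on GRCm38, each with 250 bases before and 50 bases after a transcription start. The promoters of *Slc35f2*, of the abundant *Slc35f5* and of the nearly silent *Slc35f3* are shown 5′ to 3′ because they differ in this density, with every CpG in capitals. They lie at chr9:53771285-53771584, chr1:125560345-125560644 and chr8:126298329-126298628, all on the plus strand. For *Slc35f3* this is the RefSeq start that lies just inside the first exon of the gene in GENCODE, whose length was used for its level. The other start that RefSeq gives lies 159433 bases before the annotated gene.
Slc35f2: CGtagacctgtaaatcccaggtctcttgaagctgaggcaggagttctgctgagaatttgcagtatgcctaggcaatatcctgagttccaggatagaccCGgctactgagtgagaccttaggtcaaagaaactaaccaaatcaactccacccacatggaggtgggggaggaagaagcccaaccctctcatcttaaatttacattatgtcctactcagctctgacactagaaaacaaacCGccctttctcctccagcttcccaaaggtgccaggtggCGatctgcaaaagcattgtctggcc
Slc35f5: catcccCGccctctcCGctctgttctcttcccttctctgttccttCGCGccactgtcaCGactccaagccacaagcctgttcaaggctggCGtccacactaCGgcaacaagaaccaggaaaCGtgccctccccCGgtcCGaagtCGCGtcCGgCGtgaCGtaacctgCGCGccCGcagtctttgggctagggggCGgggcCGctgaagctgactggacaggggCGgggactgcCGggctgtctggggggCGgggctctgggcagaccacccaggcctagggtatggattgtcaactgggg
Slc35f3: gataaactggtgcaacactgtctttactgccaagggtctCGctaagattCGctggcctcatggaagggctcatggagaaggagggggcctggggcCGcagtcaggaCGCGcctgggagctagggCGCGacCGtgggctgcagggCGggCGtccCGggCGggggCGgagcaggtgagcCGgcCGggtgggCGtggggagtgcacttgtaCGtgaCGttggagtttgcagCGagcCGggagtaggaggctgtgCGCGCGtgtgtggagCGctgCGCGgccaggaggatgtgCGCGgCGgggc

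The *Slc35f2* promoter held 4 CpG, fewer than any other promoter of the subfamily, with a GC content of 49.3%. The observed number was 0.221 of that expected from its C and G content. Of all 32851 promoters in the RefSeq table, 31.4% had fewer CpG, and the median promoter had 7. The promoters of the relatives held 14 CpG in *Slc35f1*, 16 in *Slc35f6*, 18 in *Slc35f4*, 20 and 23 at the 2 starts of *Slc35f5*, and 29 at the start of *Slc35f3* shown and 42 at its other start. Among 21 promoters of 18 other Slc35 genes the median was 21, and 2 had at most 4, 1 of the 2 promoters of *Slc35b3* and the promoter of the silent *Slc35g3*. These 2 were named after their values were seen.

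Among promoters matched to a gene listed here, those of transcripts abundant in these livers were richer in CpG. RefSeq promoters without such a match were left out, and a gene with several starts counted once for each. The median was 21 CpG for 9688 promoters of genes with at least 100 estimated reads per library, 15 for those with 10 to 100, 10 for 1 to 10, 7 for under 1 and 3 for genes without reads. *Slc35f5* and *Slc35f6* lay between the quartiles of their class, 12 and 29. *Slc35f2* lay below the lower quartile of its class, which was 6, while *Slc35f3* and *Slc35f4* lay above the upper quartiles of theirs, 16 and 6. Among the 6 members, CpG content and level in liver thus ran in different orders.

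**Figure D4:**
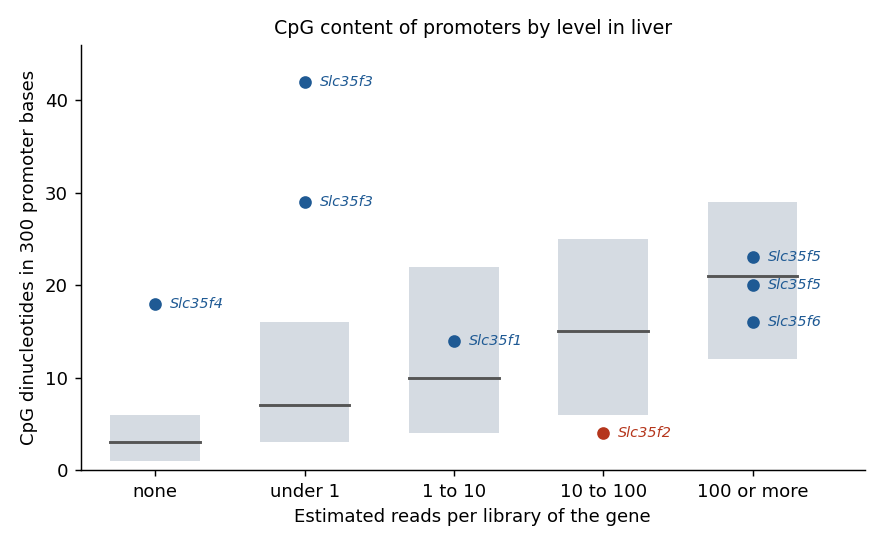
CpG dinucleotides in 300 promoter bases, by the estimated reads per library of the gene. Boxes run from the lower to the upper quartile over all promoters of a class with the median as a line, and points are the 8 promoters of the Slc35f genes. *Slc35f2*, with 4 CpG, is the only point under its box, and the points of *Slc35f3* and *Slc35f4* are above theirs.

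PPARɑ binds DNA with its partner RXR at direct repeats of AGGTCA spaced by 1 base. The letters AGGTCANAGGTCA, searched on both strands, were found in 0 of the 8 promoters of the members and in 0.0396% of all promoters. With so low a share, 0 of 8 does not set the members apart. Repeats that depart from these letters, and sequence outside these promoters, were not searched. The single AGGTCA was found in 1 of the 8, that of *Slc35f2*, on the strand of the gene from 132 to 127 bases before the start, and in 16.3% of all promoters. The TATA box letters TATAAA, on either strand, were in 0 of the 8 and in 13.6% of all promoters. A match of letters is a description of the sequence, and binding was not measured at these promoters.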

How the data were processed

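The members and gene lists were chosen with earlier results of these data known. Per the labels and the methods, the authors' libraries were stranded and poly-A selected, and the authors' steps were Trimmomatic, RNA STAR on GRCm38, featureCounts and edgeR. Versions, annotation, strand setting and filter are not given in the sources used here. The deposited table holds the authors' average log2 CPM, which was used, and the authors' fold changes, F statistics, p-values and FDR, which were not used. It holds 0 columns per library, so the planned comparison of V227A with wild-type, its paired fit and the omission of single mice were not made. The labels do not say whether the mice were littermates.

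The 8242 genes at the lowest value, -3.78, have no reads. With an assumed prior count of 2, the default of the authors' edgeR, this value gives a mean effective library size of 27473997 reads, and reads per library follow from each average. The recovered totals were whole to within 0.1 for 99.9% of 2378 genes at 1 to 5 reads, and for 93.7% of 4181 genes at 1 to 22. Single library sizes are unknown. Intervals are 95% exact Poisson intervals on rounded totals, and conditional binomial intervals for ratios. Transcript lengths came from GENCODE vM21 for 94.8% of the 18937 genes with reads, and promoters from RefSeq (GRCm38.p6). The recovery of reads was tested on simulated data. All 6 members are described, with the 3 highest and 3 lowest other Slc35 genes by level per kilobase, genes in counts of 5 or fewer, and the highest and lowest gene of each marker list, of which 1 is not reported here. Python 3.11.15, pandas 2.3.3, numpy 2.4.6, scipy 1.17.1 and matplotlib 3.10.9 were used.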

Additional observations from a re-analysis of the deposited data

How the results depend on the processing

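With the prior count left in, the estimated reads per library were 4.77 for *Slc35f1*, 2.12 for *Slc35f3* and 2 for *Slc35f4*, a value that a gene without reads also has, while *Slc35f2*, *Slc35f5* and *Slc35f6* stayed within their counting intervals. Divided by coding length, the level per kilobase was 35.6 for *Slc35f2*, 2.26 for *Slc35f1*, 481 for *Slc35f5* and 543 for *Slc35f6*, because coding sequences are shorter than transcripts. Over the union of exons, a choice made after seeing the data, it was 256 for *Slc35f5* and 71.4 for *Slc35f6*. Over the longest protein-coding transcript, also chosen later, *Slc35f6* had 196. Coding length exchanged ranks 1 and 2, and *Slc35f2* ranked 3 under the 4 alternative scales. Against all genes listed 57.7% of genes lay below *Slc35f2*, and against genes with an average log2 CPM of at least 0, 9.16%. The count of expressed members was 3 with a minimum of 10 reads or an average log2 CPM of at least 0.

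No paired analysis was possible because the deposited columns carry no replicate. The alternatives planned for the comparison of genotypes, and for protein identity, were not run. Depth limits *Slc35f1*, *Slc35f3* and *Slc35f4*.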
